A study of Mus musculus with 12 samples.

Results

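B16-OVA cells that had received only the solvent DMSO were compared between 24 h and 72 h after its addition. The samples were chosen by their titles, the 3 DMSO arrays at 72 h against the 3 DMSO arrays at 24 h, which makes 6 of the 12 arrays of the series. B16-OVA cells are B16-F10 mouse melanoma cells made to express ovalbumin (OVA), a model antigen. The other 6 arrays hold cells treated with the MEK kinase inhibitor (MEKi) GDC-0623 at 100 nM and taken at the same times. Per the labels, cells of both arms were seeded at 450000 in 22 ml of medium, DMSO or MEKi was added on the next day, and pellets were snap frozen at 24 h or 72 h. The sources used here mention no change of medium. The DMSO arm thus held no drug, and its cells at 72 h had spent longer in the same flask than those at 24 h.

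A culture that is left to grow uses up glucose and amino acids, acidifies its medium and lowers the oxygen that reaches the cells. Cells meet these shortages through known programmes. A lack of amino acids raises translation of the transcription factor ATF4, which turns on amino acid synthesis and transport. Low oxygen stabilizes HIF-1, which turns on glycolysis and blood vessel growth factors. Fewer nutrients and growth factors also lower ribosome production and entry into the cell cycle.

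Each array gave a log2 signal, normalized by the authors with RMA, for 45037 probe sets that were not controls. For 18193 genes the value is that of the gene's own probe set with the highest mean signal. A gene is called higher or lower here when limma's adjusted p (Benjamini-Hochberg over all 45037 probe sets) was under 0.05, and each change is the mean at 72 h minus the mean at 24 h with its SE (n = 3 arrays per time). Replicates are described as biological, with no word on whether they were grown independently. The p-values therefore refer to the scatter among these samples, and that scatter may be technical.

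The arrays of the 2 times differed in their technical controls as well, and time in culture and harvest cannot be told apart in this design. The 3′ minus 5′ signal of the spiked Dap transcript, a control of labelling, was 2.06, 2.06 and 2.01 at 24 h and 1.43, 1.29 and 1.48 at 72 h. The 2 times did not overlap for 10 of 11 such measures in DMSO, where the smallest p that 3 against 3 arrays allow is 0.1. Over the 6 arrays of each time the Dap measure differed by -0.63 (exact two-sided permutation test, p = 0.00216, 0.00397 after adjustment over 11 measures). The array median was 5.31 to 5.32 at 24 h and 5.36 to 5.39 at 72 h, while the interquartile range was 4.29 to 4.33 and 4.07 to 4.19. The part of these differences in the results was not tested. Of 10 melanocyte markers, all lay above the median probe set mean of 5.363 at both times, with an average per array of 12.8 to 12.84 at 24 h and 12.73 to 12.91 at 72 h. Markers of immune, fibroblast, endothelial and epithelial cells had medians of 4.5 to 4.99 at 24 h and 4.61 to 5.1 at 72 h. At 24 h 8 of 17 immune, 5 of 12 fibroblast, 4 of 11 endothelial and 2 of 11 epithelial markers lay above 5.363, with highest signals of 6.3, 9.93, 10.17 and 6.2.

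Much of the transcriptome differed between the times. Of 18193 genes, 2581 were called higher at 72 h (14.2%) and 3080 lower (16.9%), among them 189 higher and 151 lower by at least 2-fold. In 8820 genes (48.5%) the arrays of the 2 times did not overlap, so a lack of overlap alone is common here. Of probe sets, 5080 were called higher and 6460 lower, and with every array centred on its median the split was 3363 and 7952. Without any 1 of the 24 h arrays 1707 to 1711 genes were called higher. The direction depended on the signal level. Of 6856 genes below the median probe set mean, 555 were called higher (8.1%) and 56 lower (0.817%). Of 11337 brighter genes, 2026 were called higher (17.9%) and 3024 lower (26.7%). After a further quantile normalization the dimmer genes split into 257 higher and 96 lower and the brighter ones into 2385 and 2318, so that over all genes more were called higher (2642) than lower (2414). The gene lists below are read against the shares of all genes, not against 0. For lists of mostly brighter genes the shares of brighter genes are the closer background.

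The largest rise was that of Nupr1, a small stress-induced chromatin protein. Its signal was 7.18, 6.84 and 7.08 on the 24 h arrays and 10.78, 10.33 and 11.56 on the 72 h arrays, a 14.5-fold rise (log2 3.86 ± 0.26, adjusted p = 6.74e-05). Trib3, a pseudokinase induced by ATF4, rose 11.5-fold, from 8.31, 7.97 and 8.00 to 11.62, 11.05 and 12.17 (3.52 ± 0.24, adjusted p = 6.9e-05). In both genes the lowest 72 h array was replicate 2 and the highest replicate 3, and the times stood far apart. Among genes called at least 2-fold higher, 72 h replicate 2 had the smallest change in 150 of 189. Among those at least 2-fold lower it did so in 95 of 151, so its smaller change is not particular to single genes. Bnip3, a mitochondrial receptor for mitophagy and a HIF target, rose 7.57-fold from 10.01, 9.92 and 9.89 to 13.09, 12.58 and 12.91 (2.92 ± 0.12). Ddit4, a brake on the growth kinase mTORC1, rose 7.29-fold from 8.16, 8.36 and 8.35 to 11.14, 11.01 and 11.32 (2.87 ± 0.10). The next were Selenbp1, a selenium-binding methanethiol oxidase, with 7.05-fold, the glycolytic enzyme Aldoc with 6.41-fold and the immediate early factor Egr1 with 6.13-fold. Cyb5r2, the mitochondrial protein gene Mgarp, the glycogen phosphorylase Pygl, the pyruvate dehydrogenase kinase Pdk1 and Kbtbd11 rose by 5.03-fold to 6.01-fold. Averaged over their 4 probe sets each, the log2 change was 0.87 instead of 2.33 for Kbtbd11 and 1.68 instead of 2.39 for Pdk1. Selenbp1 scattered more at 72 h, with 11.14, 9.96 and 10.58, than at 24 h, with 7.75, 7.69 and 7.79.

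The largest fall was that of Lims2, an adaptor of integrin adhesions. Its signal was 10.86, 10.83 and 10.73 at 24 h and 6.23, 6.11 and 6.56 at 72 h, which is 22.7-fold lower (log2 -4.51 ± 0.11, adjusted p = 7.02e-07). Etv5, a transcription factor induced by ERK, was 12.1-fold lower, with 8.86, 8.98 and 8.99 against 5.59, 5.33 and 5.12 (-3.60 ± 0.12). None of the 72 h arrays came near the 24 h ones in either gene. Known targets of BMP signalling followed. The inhibitor of differentiation Id1 was 9.85-fold lower, with 9.18, 9.11 and 9.11 against 5.90, 5.89 and 5.71. Its relative Id3 was 8.3-fold lower, with 11.94, 11.82 and 11.79 against 8.65, 8.61 and 9.13, and the inhibitory SMAD gene Smad6 7.46-fold lower, with 8.91, 8.77 and 8.73 against 5.87, 6.01 and 5.83. The anion transporter Slc26a7 was 5.09-fold lower and Nppb, which encodes a natriuretic peptide, 4.82-fold lower. Pmepa1, a TGF-beta target, Chn2, the matricellular factor Ccn2, Klhl21 and the proteoglycan gene Bcan were 3.85-fold to 4.47-fold lower. The 3 probe sets of Pmepa1 ran from -2.16 to 0.01. Averaged over all probe sets of the gene, the log2 change was -2.72 for Etv5, -1.66 for Slc26a7, -1.11 for Pmepa1 and -1.10 for Klhl21.

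**Figure D1:**
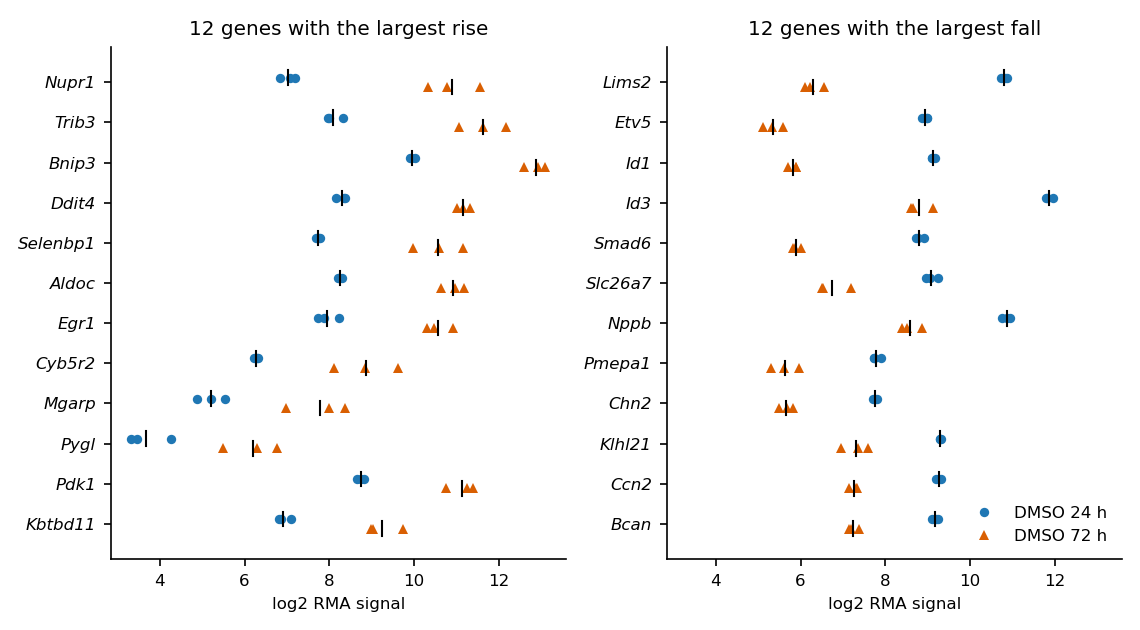
Log2 RMA signal (horizontal axis) of the 12 genes with the largest rise (left) and the 12 with the largest fall (right) in each of the 3 DMSO arrays at 24 h (circles) and at 72 h (triangles), with group means as vertical strokes. The genes were chosen for having no overlap between the times; Lims2 shows the widest gap, from 10.73 or more down to 6.56 or less.

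Programmes were described over 30 gene lists, each as the count of measured members called. Beside these stand the 14.2% higher and 16.9% lower of all genes and their median change of 0.04. The lists and members were chosen with earlier results of these data known, so the shares are no independent test of a programme. The ATF4 list had 36 of 46 members higher and none lower (78.3%), with a median change of 0.90. HIF targets outside glycolysis had 24 of 36 higher and 1 lower (median 0.60), and glycolysis and glucose use 22 of 33 higher and 4 lower (0.43). Interferon-stimulated genes had 31 of 49 higher and 1 lower (0.39). In the other direction, ribosome biogenesis had 43 of 48 members lower and 1 higher (median -0.68), DNA replication 32 of 44 lower and none higher (-0.48), mitosis 35 of 47 lower and 1 higher (-0.38), and ERK pathway output 14 of 29 lower and 3 higher (-0.47). Some lists share members. All 48 ribosome biogenesis, 43 of 44 DNA replication and 46 of 47 mitosis members were among the brighter genes. Of brighter genes 26.7% were called lower, which is the closer background for these lists.

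**Figure D2:**
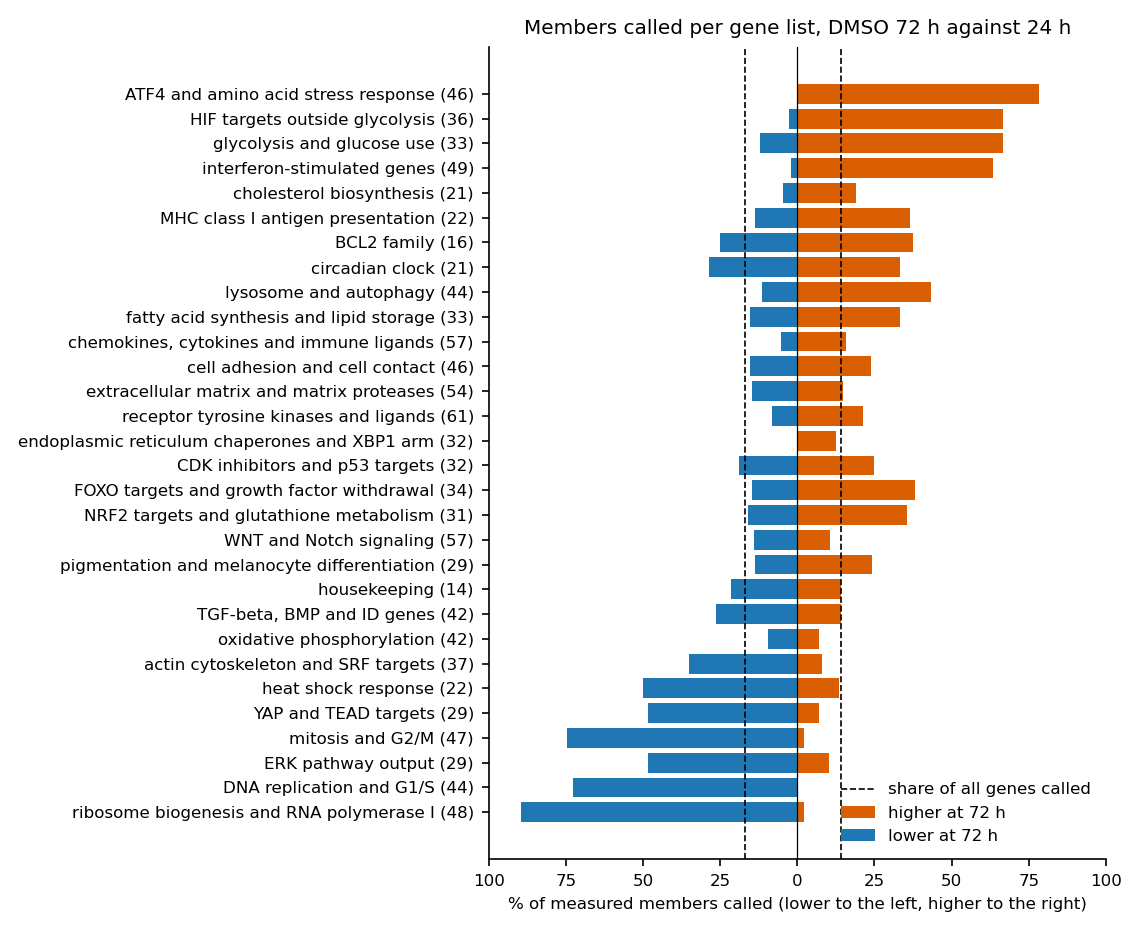
Percent of measured members called higher (to the right) or lower (to the left) at 72 h for 30 gene lists, ordered by median change, with the number of measured members in brackets. The dashed lines mark the shares of all genes, 14.2% higher and 16.9% lower; the bars run from 78.3% higher for the ATF4 list to 89.6% lower for ribosome biogenesis.

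Promoter sequences were set beside the lists, to show the letters that the factors behind these names are known to bind. In the 250 bases before the start of each gene with a RefSeq promoter entry (27025 genes), the letters TGATGNAA, a composite site of ATF4 and C/EBP factors, were found on either strand in 3.91% of genes and in 11 of 37 ATF4 list members with an entry (29.7%). The core letters ACGTG of HIF sites, which also lie inside the E-box CACGTG of MYC and MITF, were found in 18.5% of genes and in 18 of 26 HIF list members (69.2%). The E2F letters TTTCCCGC or TTTGGCGC were found in 1.51% of genes and in 7 of 37 DNA replication members (18.9%). The mitotic letters TTTGAA stood at 18.3% of genes and 34.2% of mitosis members, the pigment cell letters TCATGTG at 3.72% and 31.8%, and the sterol letters TCACNCCAC at 1.22% and 5.88%, which was 1 of 17 genes. For each of the first 3 motifs the windows below belong to called members with the largest changes among those that hold it. They lie in build GRCm38.p6 at chr7:126625471-126625720 on the minus strand for Nupr1, chr2:119350992-119351241 on the plus strand for Chac1, chr7:138909507-138909756 on the minus strand for Bnip3, chr10:59951771-59952020 on the minus strand for Ddit4, chr10:110745189-110745438 on the plus strand for E2f7 and chr11:98907901-98908150 on the plus strand for Cdc6. Each reads 5′ to 3′ up to the base before the start, and capitals mark the letters of the gene's own list, on either strand.
Nupr1: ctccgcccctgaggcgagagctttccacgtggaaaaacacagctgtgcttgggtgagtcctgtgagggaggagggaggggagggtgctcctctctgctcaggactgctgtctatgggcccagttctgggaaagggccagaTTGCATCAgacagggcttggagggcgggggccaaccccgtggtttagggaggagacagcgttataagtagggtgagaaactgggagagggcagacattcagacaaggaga
Chac1: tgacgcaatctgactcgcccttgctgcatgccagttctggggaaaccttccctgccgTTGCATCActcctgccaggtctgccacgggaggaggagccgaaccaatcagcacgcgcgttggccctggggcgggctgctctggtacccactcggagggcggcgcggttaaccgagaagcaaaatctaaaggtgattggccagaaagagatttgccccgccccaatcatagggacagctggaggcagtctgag
Bnip3: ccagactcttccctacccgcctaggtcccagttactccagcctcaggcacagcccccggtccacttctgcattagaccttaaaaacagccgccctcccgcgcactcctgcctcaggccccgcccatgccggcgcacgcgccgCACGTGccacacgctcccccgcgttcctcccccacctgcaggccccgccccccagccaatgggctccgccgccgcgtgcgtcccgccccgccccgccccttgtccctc
Ddit4: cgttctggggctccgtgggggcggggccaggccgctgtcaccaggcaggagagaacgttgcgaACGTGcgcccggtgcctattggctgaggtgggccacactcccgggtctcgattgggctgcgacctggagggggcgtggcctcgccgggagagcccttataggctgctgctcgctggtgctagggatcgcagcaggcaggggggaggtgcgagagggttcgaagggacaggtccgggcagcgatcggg
E2f7: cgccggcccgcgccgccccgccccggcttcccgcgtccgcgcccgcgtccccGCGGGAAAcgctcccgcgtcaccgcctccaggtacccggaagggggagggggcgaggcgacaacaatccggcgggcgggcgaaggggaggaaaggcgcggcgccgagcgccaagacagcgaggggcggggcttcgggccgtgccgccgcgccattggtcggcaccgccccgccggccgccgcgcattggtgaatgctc
Cdc6: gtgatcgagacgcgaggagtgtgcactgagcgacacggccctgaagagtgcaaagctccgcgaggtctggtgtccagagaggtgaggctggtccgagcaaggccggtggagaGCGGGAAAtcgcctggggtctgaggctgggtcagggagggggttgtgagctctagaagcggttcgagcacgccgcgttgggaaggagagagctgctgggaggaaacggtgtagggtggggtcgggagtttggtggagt
In Bnip3 the capitals hold the palindrome CACGTG, which matches on both strands. A match describes the letters and is no evidence that a factor was bound.

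Within the ATF4 list, every role had members called higher and none lower. The roles in this and the later lists were chosen after the values were seen, so their counts describe these data only. Its 7 transcription factors all rose, with a median change of 1.68. Atf4 itself, whose protein is mainly set by translation, read 12.23, 12.24 and 12.21 at 24 h and 13.06, 13.02 and 13.25 at 72 h (1.84-fold). Ddit3, which encodes the death-linked factor CHOP, rose 4.41-fold, from 9.36, 9.36 and 9.30 to 11.23, 11.11 and 12.10 (2.14 ± 0.22, adjusted p = 0.000297). Replicate 3 stood highest at 72 h, and the average over both probe sets was 1.55. Atf3 rose 3.21-fold and Cebpb 3.32-fold, both with replicate 3 highest. The 5 feedback and brake genes all rose (median 2.08), with Chac1, which degrades glutathione and carries the ATF4 letters shown above, 4.89-fold higher. Of 8 genes of amino acid synthesis and breakdown 7 rose, among them the asparagine synthetase Asns, with 11.91, 11.81 and 11.86 against 12.79, 12.67 and 13.04 (1.96-fold). The 3 mitochondrial one-carbon enzymes rose (0.34 to 1.64). Of 9 amino acid transporters 5 rose. The cystine carrier Slc7a11 led them with 4.17-fold, from 5.53, 5.78 and 5.71 to 7.86, 7.43 and 7.91, whereas the leucine carrier Slc7a5 changed by 0.14 ± 0.08 and was not called. Of 10 genes for tRNA synthetases and tRNA export 7 rose, by 0.31 to 0.93. Vldlr, a lipoprotein receptor of the same list, rose 4.67-fold (2.22), but its 6 probe sets ran from 0.32 to 2.22 with an average of 1.05.

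In the chaperone branch of the endoplasmic reticulum stress response the share of members called depended on the setting. In the main fit 4 of 32 members of the chaperone and XBP1 list were called higher (12.5%), near the 14.2% of all genes, and none lower. The central chaperone gene Hspa5 read 13.43, 13.32 and 13.41 at 24 h and 13.49, 13.53 and 13.14 at 72 h, with overlapping groups and a change of 0.00 ± 0.11. The called members were led by Herpud1, a component of protein degradation at the reticulum, which rose 2.21-fold, and by the stress sensor Atf6, which rose 1.61-fold. Most alternatives gave a share above that of all genes. It was 11 of 32 (34.4%) with brighter probe sets only, where 21.8% of all genes were called higher, with all 12 arrays in 1 fit (15.9% of all genes) and with array weights (16.3%), and also 11 without DMSO 72 h replicate 3.

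Genes of glucose use rose at several steps. Of 14 enzymes between hexokinase and lactate dehydrogenase 12 rose and none fell, with changes of 0.24 to 2.68 among those called. Aldoc read 8.23, 8.29 and 8.20 at 24 h and 11.17, 10.62 and 10.97 at 72 h, while a second probe set of the gene changed by 1.08 (average 1.88). Pdk1, which shuts pyruvate out of the mitochondrial cycle, rose 5.25-fold, from 8.81, 8.75 and 8.66 to 11.39, 10.76 and 11.25. Of 5 glycogen enzymes 4 rose, and Pygl read 4.27, 3.46 and 3.33 against 6.77, 5.50 and 6.3. Transporters split. The glucose carrier Slc2a1 and the lactate exporter Slc16a3 rose 1.69-fold and 2.74-fold, and the glucose carrier Slc2a3 and the lactate carrier Slc16a1 were 1.36-fold and 1.54-fold lower. Ldha, the lactate dehydrogenase subunit, changed by 0.20 ± 0.07 (adjusted p = 0.0581) and was not called. Its 3 arrays at 72 h all lay above those at 24 h, where 48.5% of all genes had no overlap. It was called higher under 5 of the alternatives (adjusted p = 0.00108 to 0.0473). Txnip, an inhibitor of glucose uptake that responds to glucose, rose 3.5-fold, from 8.84, 8.74 and 8.90 to 10.83, 10.36 and 10.71.

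Only part of the HIF targets outside glycolysis were grouped by role, after the values were seen, which left out Ddit4 and Selenbp1. Every role had members that rose, although the Hif1a transcript itself was not called (0.10 ± 0.08). The 4 mitochondrial genes rose by 1.13 to 2.92. Vegfa, the main blood vessel growth factor, rose 2.93-fold, from 7.84, 7.82 and 7.78 to 9.55, 8.97 and 9.58 (1.55 ± 0.15, adjusted p = 0.000228), again with replicate 2 the lowest 72 h array. Of 9 genes for secreted and surface proteins 4 rose and 1 fell. The one that fell was Tfrc, the transferrin receptor, with 12.86, 12.93 and 12.91 against 11.84, 12.23 and 11.48 (2.07-fold lower). Of 5 collagen-modifying enzymes 3 rose. Ndrg1, a classical hypoxia gene, rose 1.49-fold (adjusted p = 0.0142), and without DMSO 24 h replicate 2 or without DMSO 72 h replicate 1 or 3 the adjusted p was 0.0563, 0.0536 and 0.0501.

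**Figure D3:**
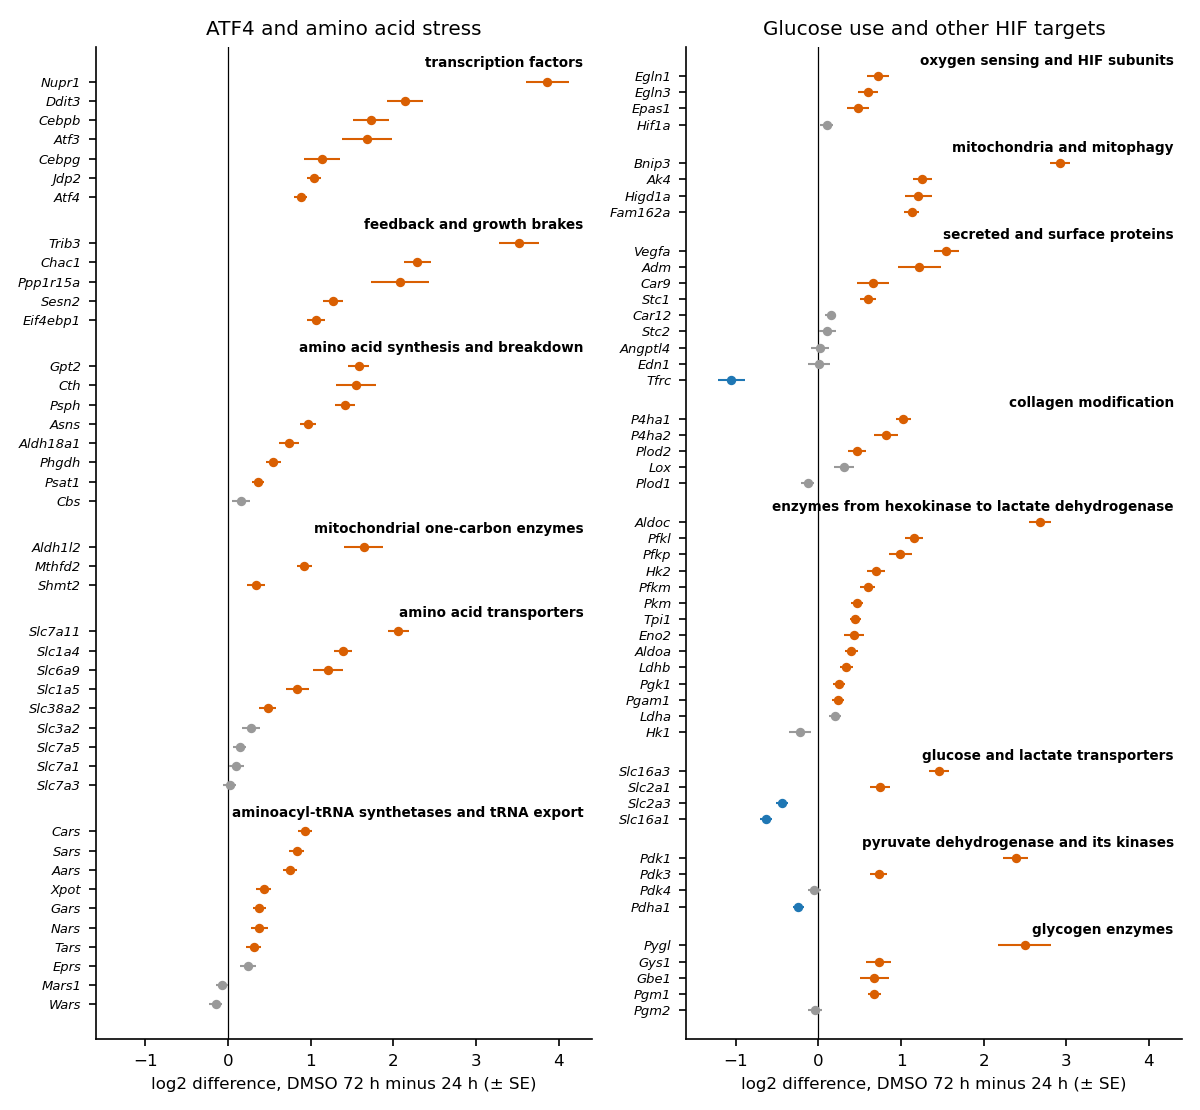
Log2 difference of DMSO 72 h minus 24 h with its SE (horizontal axis) for list members that were given a role, grouped by role. The ATF4 list is on the left, and the lists of glucose use and other HIF targets are on the right. Orange points were called higher, blue points lower and grey points not called. Among the genes drawn, Nupr1 at 3.86 and Trib3 at 3.52 lead the left panel, and Bnip3 at 2.92 and Aldoc at 2.68 the right one. The HIF targets Ddit4, at 2.87, and Selenbp1, at 2.82, were given no role and are not drawn.

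Ribosome biogenesis had the highest share of members called lower among the 30 lists, 89.6%. The assembly factor Grwd1 was 2.51-fold lower, with 10.33, 10.37 and 10.36 against 9.01, 9.35 and 8.71, and the processing factors Rrp12 and Heatr1 were 2.46-fold and 2.38-fold lower. Polr1b, a subunit of RNA polymerase I, was 2.33-fold lower, with 9.22, 9.22 and 9.09 against 8.09, 8.06 and 7.72 (-1.22 ± 0.11, adjusted p = 0.000158). Polr2a, the large subunit of RNA polymerase II, was also lower, by 2.11-fold, among 14 housekeeping genes of which 3 were lower and 2 higher.

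Cell cycle genes were lower by modest amounts. In DNA replication the largest falls were those of the repressor E2f7 and the cyclin Ccne2, 2.12-fold and 2.1-fold lower, and of the origin factors Orc1 and Cdc6, 1.99-fold and 1.95-fold lower. Cdc6 read 9.82, 9.81 and 9.84 at 24 h and 8.88, 9.28 and 8.41 at 72 h, so its 24 h arrays were almost identical while the 72 h ones were not. In mitosis Kif20b, Mybl2, Espl1 and Cenpe were 1.58-fold to 1.82-fold lower. The proliferation marker Mki67 read 12.04, 12.11 and 12.03 against 11.63, 11.80 and 11.65, which is 1.29-fold lower (-0.37 ± 0.08, adjusted p = 0.00801). The 1 mitotic gene called higher was the cyclin Ccnb2 (0.22 ± 0.07, adjusted p = 0.0417), and that call was lost without any single array (0.0595 to 0.139). In such bulk samples fewer cycling cells and less RNA per cell cannot be told apart. Among cell cycle brakes, Cdkn1b, which encodes p27, rose 2.06-fold, Btg1 2.78-fold and Gadd45a 3.23-fold, whereas Cdkn1a, which encodes p21, was not called (-0.12 ± 0.10) and its groups overlapped. Of 32 CDK inhibitors and p53 targets 8 were higher and 6 lower, or 3 lower without DMSO 24 h replicate 1 or 2.

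Part of the ERK output was lower, in cells that received no MEK inhibitor. Besides Etv5, the feedback inhibitor Spry4 was 3.18-fold lower, with 6.13, 6.13 and 5.80 against 4.67, 4.17 and 4.21, but its 4 probe sets ran from -1.67 to 0.07 with an average of -0.54. Of 6 Sprouty and Spred genes 5 fell, and of 4 ERK phosphatases 3 fell. Dusp6, the phosphatase most often used as a readout of ERK activity, read 11.49, 11.57 and 11.57 against 11.17, 11.03 and 10.84, only 1.44-fold lower (-0.53 ± 0.09, adjusted p = 0.00359). The cyclin gene Ccnd1 was 2.57-fold lower and Myc 1.76-fold lower. Immediate early factors did not follow. Of 9 such genes 1 rose and 2 fell. Egr1 went from 8.22, 7.73 and 7.88 to 10.47, 10.30 and 10.91, Ier3 of the same list rose 2.89-fold, and Fos was not called (0.26 ± 0.17).

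Of 42 TGF-beta, BMP and ID genes 6 were called higher (14.3%) and 11 lower (26.2%), with a median change of 0.0. The share lower was 16.9% over all genes and 26.7% over brighter genes. Most of the falls lay among ID genes and inhibitory SMADs, groups that were chosen after the values were seen. Of 4 ID genes 3 fell, and of 7 inhibitory SMADs and their partners 6 fell, among them Smad7 with 1.88-fold and Skil with 2.0-fold. Id2 was 2.02-fold lower, with 12.43, 12.37 and 12.37 against 11.20, 11.27 and 11.65. Of 9 ligand genes 2 rose and 1 fell, of 8 receptors 2 rose, and of 5 receptor-activated and common SMADs 1 fell. The ligand gene Tgfb1 rose 1.38-fold at a low signal, 5.38, 5.34 and 5.10 against 5.74, 5.81 and 5.65. YAP and TEAD targets were lower in 14 of 29 members and higher in 2, with Ccn2 3.98-fold and the DNA-binding partner Tead4 2.43-fold lower. Ccn2 read 9.32, 9.26 and 9.19 at 24 h and 7.34, 7.15 and 7.30 at 72 h. Of 37 actin and SRF genes 13 were lower and 3 higher, with the adhesion protein gene Vcl 1.97-fold and Srf itself 1.56-fold lower.

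Genes of antigen presentation and of the interferon response were called higher more often than lower. The class I heavy chain gene H2-K1 read 9.69, 9.55 and 9.56 at 24 h and 10.97, 10.86 and 10.91 at 72 h (2.49-fold, log2 1.31 ± 0.07, adjusted p = 4.78e-05). H2-D1 rose 2.47-fold, from 9.87, 9.75 and 9.71 to 11.08, 11.07 and 11.09. The 2 are close relatives whose transcripts may share probes, so their changes are not independent, and over the 9 probe sets of H2-D1 the log2 change averaged 0.65 instead of 1.30. Tapbp, which loads peptides, rose 2.65-fold, the light chain gene B2m 1.43-fold and Tap1 1.31-fold, although the average over the 4 probe sets of Tap1 was not called (0.12, adjusted p = 0.123), and the proteasome subunit gene Psmb10 was 1.77-fold lower. In all, 8 of 22 members of the list were higher and 3 lower. Cd274, which encodes the checkpoint ligand PD-L1, rose 1.77-fold, from 5.31, 5.62 and 5.65 to 6.31, 6.31 and 6.43. Among interferon-stimulated genes Ifitm3 rose 3.12-fold, Rsad2 2.86-fold and Ifi27 2.6-fold, with Rsad2 at 8.13, 8.07 and 7.77 against 9.63, 9.58 and 9.31. The 3 PARP family members rose alike (0.72 to 0.74), 4 of 8 IFIT and OAS genes rose, and the regulator Irf7, with 4.12, 4.44 and 4.15 against 4.35, 4.43 and 4.58, was not called. Cxcl10 went the other way, 1.57-fold lower (adjusted p = 0.0211), and without any 1 of the 3 arrays at 24 h its adjusted p was 0.0504 to 0.0646. The chemokine gene Ccl5 rose 2.13-fold, and the lectin gene Lgals3 was 3.02-fold lower, with 13.13, 13.15 and 12.94 against 11.72, 11.08 and 11.63. The 17 immune cell markers averaged 4.98 to 5.01 per array at 24 h and 5.13 to 5.2 at 72 h. Of these 3 were called higher (17.6%), near the 14.2% of all genes, among them the leukocyte marker Ptprc. Ptprc read 2.93, 2.99 and 2.81 against 3.24, 3.12 and 3.12, where the lowest value on any array was 2.21. Its call was lost without any 1 of the 6 arrays (adjusted p = 0.0606 to 0.165) and after a further quantile normalization (0.0877). All genes below the median probe set mean had a median change of 0.087, and of 0.026 after that normalization. The part of the marker shift in the interferon list was not tested.

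Pigment cell genes had a median change close to that of all genes (0.04). Of 29 pigmentation genes 7 were higher (24.1%) and 4 lower (13.8%), with a median change of 0.05. Over all genes the shares were 14.2% and 16.9%, and over brighter genes 17.9% and 26.7%. Without DMSO 24 h replicate 1 the counts were 4 higher and 2 lower, and without DMSO 24 h replicate 3 or DMSO 72 h replicate 1 also 2 were lower. Pmel, a melanosome fibre protein gene, read 13.97, 13.94 and 13.95 against 14.04, 14.03 and 14.10 and was not called (0.10 ± 0.07), and the regulator Mitf overlapped between the times (0.05 ± 0.14). The pigment enzyme gene Tyr rose 1.23-fold (adjusted p = 0.014), a call that was lost without DMSO 24 h replicate 1 or 3 (0.0512 and 0.0599). Sox10, a lineage factor, was 1.26-fold lower (adjusted p = 0.0213) and lost its call without DMSO 24 h replicate 1 or 3 or DMSO 72 h replicate 1 or 2 (0.0589 to 0.0726) and over its 3 probe sets (0.0565). The widest changes in the list were those of Slc7a11, given above, and of the melanosome transport gene Mlph, with 11.26, 11.22 and 11.23 against 9.59, 9.80 and 9.79, 2.85-fold lower.

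The remaining lists were mixed. Lysosome and autophagy genes had 19 of 44 higher and 5 lower, led by the lysosomal enzyme gene Naglu at 2.1-fold. FOXO targets had 13 of 34 higher and 5 lower, with the cyclin-like Ccng2 3.89-fold higher and the kinase gene Sgk1 3.47-fold lower. Among NRF2 targets 11 of 31 were higher and 5 lower, led after Slc7a11 by the glutathione transferase Gsta4 (3.15-fold) and the heme oxygenase Hmox1 (2.61-fold). Heat shock genes had 11 of 22 lower and 3 higher, with the chaperone gene Hsph1 2.38-fold lower, at 11.97, 11.64 and 12.03 against 10.69, 11.11 and 10.09, and the factor Hsf2 2.5-fold higher (1.32, and 0.04 in its other probe set). Without DMSO 24 h replicate 1 or 3 or DMSO 72 h replicate 1, 6 of the 22 were lower. In fatty acid synthesis and storage 11 of 33 were higher and 5 lower, and the synthetic enzymes Elovl6 and Fasn were 2.57-fold and 2.01-fold lower (over its 3 probe sets Elovl6 changed by -0.66 instead of -1.36). Cholesterol synthesis had 4 of 21 higher and 1 lower, a count that was 11 higher without DMSO 72 h replicate 3, 2 without any other single array and 10 with array weights, with Tm7sf2 2.07-fold higher and Hmgcs1 not called (0.11 ± 0.17). The clock output gene Dbp rose 4.45-fold, from 6.23, 6.18 and 6.18 to 8.72, 8.16 and 8.17, in a list with 7 of 21 genes higher and 6 lower, and the nuclear receptor gene Rora rose 1.84-fold. Without DMSO 24 h replicate 3, 4 clock genes were higher. Gja1, a gap junction gene, and Mcam, an adhesion molecule gene, were 3.72-fold and 2.7-fold lower and the tetraspanin gene Cd82 2.51-fold higher, among 46 adhesion genes with 11 higher and 7 lower. Without any 1 of the 24 h arrays or DMSO 72 h replicate 1, 6 or 7 adhesion genes were higher. Over all probe sets Gja1 changed by -1.12 instead of -1.90 and Cd82 by 0.71 instead of 1.33. Timp3, an inhibitor of matrix proteases, and the protease gene Mmp11 rose 3.7-fold and 3.23-fold, in a matrix list with 8 of 54 in each direction. The Notch ligand gene Jag1 was 2.5-fold lower (6 of 57 WNT and Notch genes higher, 8 lower, or 4 and 5 lower without DMSO 24 h replicate 1 and 2) and the receptor gene Fgfr3 2.31-fold lower (13 of 61 receptor kinases and ligands higher, 5 lower, with the receptor gene Pdgfrb 1.74-fold higher). Beside Bnip3, the death gene Bbc3 rose 1.69-fold and the survival gene Bcl2 was 1.57-fold lower (6 of 16 BCL2 family members higher, 4 lower). Chemokines and other immune ligands had 9 of 57 higher and 3 lower, or 1 lower without DMSO 24 h replicate 1 or 3. Respiratory chain genes had 3 of 42 higher and 4 lower, and without any 1 of the 24 h arrays or DMSO 72 h replicate 1 there were 1 higher and 1 or 2 lower. Shares near or below those of all genes were those of matrix genes (14.8% in each direction) and WNT and Notch genes (10.5% higher, 14.0% lower). The same held for chemokines and other immune ligands (15.8% higher, 5.26% lower) and the respiratory chain (7.14% higher, 9.52% lower).

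The same interval was also measured in the MEKi arm, on arrays that the DMSO comparison did not use. Across 18193 genes the 2 changes with time had a Pearson r of 0.744. Both arms share the harvest times and their labelling, and genes are not independent replicates. Of the 5661 genes called in DMSO, 3299 (58.3%) were also called in MEKi with the same sign, which is 61.4% of the MEKi calls, and 58 were called with opposite signs. Lims2 was lower in both, by -4.51 ± 0.11 in DMSO and -4.59 ± 0.11 in MEKi. Id1, Id3, Smad6, Nupr1, Trib3, Chac1 and Ccn2 were also called in both with the same sign and not in the difference of the 2 changes. So was Egr1, but in MEKi it read 4.66, 5.01 and 4.69 at 24 h and 5.91, 6.47 and 9.87 at 72 h. Much of its MEKi rise thus lay in 1 array, and its difference of -0.01 ± 0.97 is too imprecise to show agreement.

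**Figure D4:**
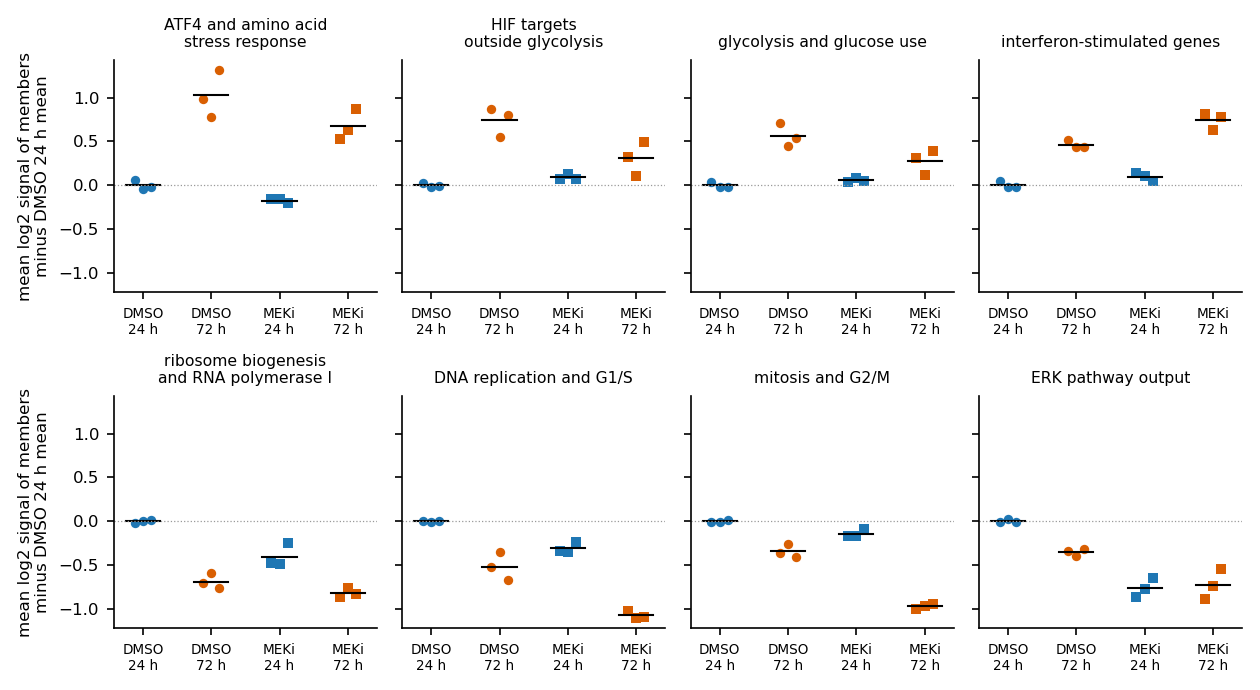
Mean log2 signal of the members of 8 gene lists on each of the 12 arrays (vertical axis), relative to the mean of the 3 DMSO arrays at 24 h, with circles for DMSO, squares for MEKi and strokes for group means. In DMSO the ATF4 list lies between -0.04 and 0.06 at 24 h and between 0.78 and 1.31 at 72 h, and ribosome biogenesis between -0.02 and 0.02 and then between -0.77 and -0.60.

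The difference of the changes, DMSO minus MEKi, was tested in a limma contrast on all 12 arrays, which called 382 genes above 0 (2.1% of all) and 358 below (1.97%). In 334 of these 740 genes the 2 changes had opposite signs. HIF targets outside glycolysis had 9 of 36 members above and none below, and glycolysis and glucose use 7 of 33 above and 2 below. All 4 mitochondrial HIF targets were among the 9, but that role group was chosen after the values were seen. Bnip3 rose by 2.92 in DMSO and by 1.37 ± 0.27 in MEKi, and Ddit4 by 2.87 and 1.29 ± 0.18. For Selenbp1 the change of 2.82 stood against 0.61 ± 0.38, and for Pdk1 that of 2.39 against 0.78 ± 0.26. Bnip3, Ddit4, Selenbp1 and Pdk1 were named for their large rise in DMSO. The difference uses the same DMSO arrays, so that choice favours values above 0. Mitotic genes had 28 of 47 members above and none below, with medians of -0.38 in DMSO and -0.86 in MEKi. Cenpe fell by 0.66 in DMSO and by 1.27 in MEKi, where it read 10.55, 10.65 and 10.55 at 24 h and 9.23, 9.33 and 9.38 at 72 h. DNA replication had 5 of 44 above and none below. ATF4 members had 1 above and 1 below, of 46, which are Vldlr and Slc7a11. Slc7a11 rose by 2.06 in DMSO and by 4.01 in MEKi.

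ERK output genes lay on the other side, with 6 of 29 members below 0 and none above. Etv5 fell by 3.60 in DMSO, from high 24 h signals, whereas in MEKi it already read 4.35, 4.22 and 6.08 at 24 h, then 4.06, 3.93 and 4.18 at 72 h. Etv5 was among the largest falls in DMSO, on arrays that the difference shares, which favours a value below 0. NRF2 targets had 9 of 31 below and 1 above, with Srxn1, which reduces oxidized peroxiredoxins, changing by 0.20 ± 0.22 in DMSO and by 2.19 ± 0.14 in MEKi. Without DMSO 72 h replicate 3 the DMSO change of Srxn1 was 0.51 and was called (adjusted p = 0.00592). Some genes with wide differences were called in opposite directions in the 2 arms. Tmem179 fell by 1.54 in DMSO and rose by 1.28 in MEKi, where it read 6.82, 6.67 and 6.85 at 24 h and 8.05, 8.33 and 7.81 at 72 h (difference -2.82 ± 0.23, adjusted p = 0.000132). Tinagl1, a matrix protein gene, fell by 1.48 in DMSO and rose by 0.69 in MEKi. The collagen gene Col14a1 changed by 0.07 ± 0.11 in DMSO and fell by 2.15 in MEKi, and Map2k6, a kinase of the p38 pathway, by 0.15 ± 0.11 and -1.45. Ndrg1 rose by 0.58 in DMSO and fell by 1.25 in MEKi, and the orphan receptor gene Nr4a3 rose by 0.77 and fell by 1.00. The DMSO rise of Nr4a3 was not called in the fit of all 12 arrays (adjusted p = 0.0655), and over its 3 probe sets the change was 0.29. Mllt11 was not called in DMSO (0.30 ± 0.11) and rose by 2.13 in MEKi.

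**Figure D5:**
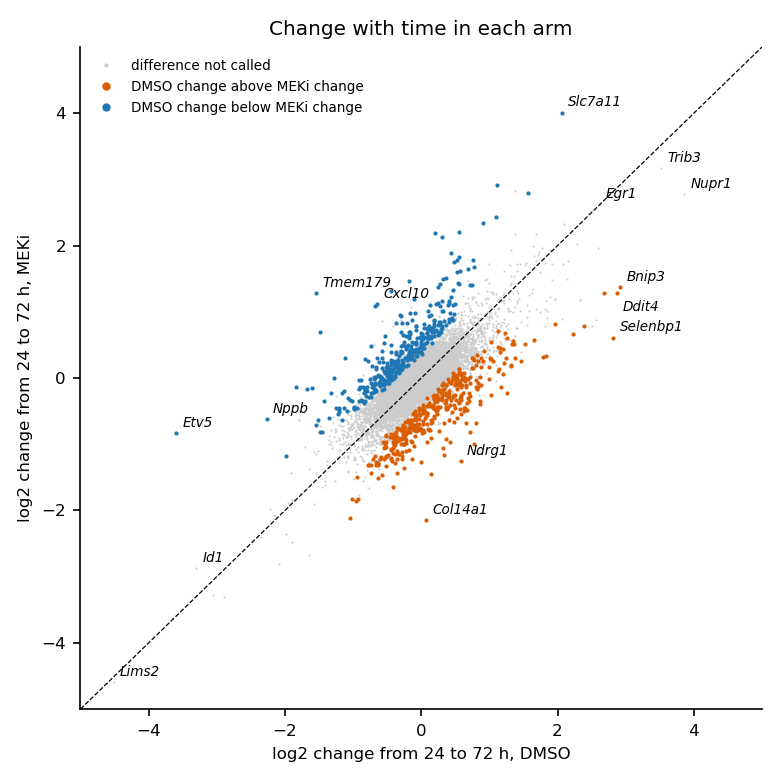
Log2 change from 24 h to 72 h in DMSO (horizontal axis) and in MEKi (vertical axis) for each of 18193 genes, with the dashed line marking equal changes. Orange and blue points are the 382 and 358 genes whose DMSO change was called above or below the MEKi change; Lims2, Id1 and Trib3 lie near the line, and Etv5, Bnip3 and Tmem179 far from it.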

How the data were processed

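RNA of B16-OVA cells was hybridised to Affymetrix mouse genome arrays, 1 per sample. The deposited values are log2 signals that the authors normalized by RMA, rounded to 2 decimals. RMA subtracts background, equalizes the arrays and combines probes into 1 value per probe set. Software versions are not stated. RMA values can understate changes near the background, and the distributions of the deposited arrays still differed slightly. The number of arrays limits the precision.

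Groups came from the sample titles. No test included the 64 control probe sets. The annotation paired 34945 probe sets with 1 gene, 932 with several and 9160 with none, and only the first kind gave genes. Of 1242 list entries 73 were not matched and not analysed here. DMSO at 72 h was set against 24 h with limma 3.58.1 in R 4.3.3 on 6 arrays without covariates (two-sided). The MEKi arm was fitted in the same way, and the difference on 12 arrays. Lists were described by counts and medians only. The main limma fits of the DMSO change with time and of the difference were tested on simulated data. The MEKi fit and the alternative settings were not.

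The members and lists were chosen with earlier results of these data known. Named genes are the 12 highest and 12 lowest called genes with no overlap between times, a higher group mean of at least 5.363 and an established name, up to 4 called members per list, a fixed set, and the 6 highest and 6 lowest for the difference, of which the text gives a part. Atf4, Atf3, Cebpb, Hspa5, Slc7a5, Slc16a3, Slc2a1, Slc16a1, Slc2a3, Ldha, Hif1a, Smad7, Skil, Tgfb1, Fos, Ccnb2, Psmb10 and Tap1, with Ptprc, Sox10 and Pdgfrb where outside the rule, were chosen after their values were seen, as were the role groups within lists. Promoter windows came from the RefSeq table of GRCm38.p6, which covers 27025 genes. Alternatives were all 12 arrays in 1 fit, the replicate number as a block, brighter probe sets, centred arrays, quantile normalization again, a prior with trend and robust fitting, weights per array, a 1.5-fold minimum, averaged probe sets per gene and each array left out in turn. One alternative, a block within each harvest time, was chosen after seeing the data.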

Additional observations from a re-analysis of the deposited data

Results flagged for a closer look

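The change from 24 h to 72 h differed between DMSO and MEKi for these named genes by the limma contrast on 12 arrays (adjusted p under 0.05 over all probe sets). Each value is the DMSO change minus the MEKi change on the log2 scale. It was above 0, so that DMSO cells gained more or lost less, in these genes: 2.22 for Col14a1, 2.2 for Selenbp1, 1.83 for Ndrg1, 1.76 for Nr4a3, 1.61 for Pdk1, 1.61 for Map2k6, 1.58 for Ddit4, 1.55 for Bnip3, 1.55 for Vldlr, 1.39 for Aldoc, 1.21 for Slc16a3, 1.14 for Ccng2, 0.82 for Id2, 0.81 for Cd82, 0.72 for Ccnb2, 0.71 for Rora, 0.7 for Herpud1, 0.61 for Cenpe and 0.51 for Mki67.

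It was below 0 in these genes: -2.82 for Tmem179, -2.77 for Etv5, -2.17 for Tinagl1, -2.0 for Srxn1, -1.95 for Slc7a11, -1.83 for Mllt11, -1.77 for Cxcl10, -1.65 for Nppb, -1.5 for Spry4, -1.45 for Lgals3, -1.34 for Ccl5, -1.28 for Tead4, -1.08 for Mcam, -0.87 for Tgfb1, -0.81 for Klhl21, -0.75 for Fgfr3 and -0.67 for Polr1b. Many of the genes above and below 0 were named for a large change in DMSO, on arrays that the difference also uses. That choice favours differences in the direction of the DMSO change. No cause of these differences was tested.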

How the results depend on the processing

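Under the alternatives other than the 1.5-fold minimum and leaving out arrays, the counts of calls over all probe sets or genes stayed within 1.5 times those given, except as follows. With centred arrays 3363 probe sets were higher in DMSO at 72 h. A tested minimum of 1.5-fold left 212 probe sets higher and 239 lower, and 123 genes higher and 110 lower. For the difference of the changes (746 probe sets above 0 and 612 below), the counts were 1211 and 1090 with brighter probe sets, 1155 and 951 with a trended and robust prior, 1458 and 1148 with array weights, and 3 and 5 with a 1.5-fold minimum. Leaving out 1 array gave 3298 to 4706 probe sets and 1707 to 2371 genes higher in DMSO, with the lowest values where a 24 h array was left out, and 393 to 1026 and 275 to 772 probe sets for the difference. The causes were not tested.

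Counts within lists moved more. Under those settings cholesterol synthesis had 2 to 10 members higher (4 as given), the chaperone list 3 to 11 (4), and the respiratory chain 1 to 5 higher (3) and 2 to 9 lower (4). WNT and Notch genes were 10 higher with averaged probe sets (6) and 4 lower after quantile normalization (8), and 7 adhesion genes were higher with centred arrays (11). With averaged probe sets 5 actin genes were higher (3) and 3 lysosome genes lower (5), and 1 to 5 YAP targets were higher (2). Averaging all probe sets of a gene moved the fold of 15 of 114 called genes by over 1.5 times and ended 2 calls, Sox10 and Tap1.

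Small changes that were not called turned direction. Mitf was -0.013 with centred arrays, -0.014 with array weights and -0.12 to 0.165 without 1 array. Hmgcs1 was -0.023 over all its probe sets and -0.008 to 0.342 without 1 array, Hif1a -0.015 over its probe sets, Col14a1 -0.038 to 0.152 without 1 array, and Hspa5 -0.063 with centred arrays and -0.072 to 0.123 without 1 array.

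Not every same-numbered pair correlated above 0.1, so the replicate numbers were not taken to pair the samples. Same-numbered DMSO arrays of the 2 times correlated at 0.00558 to 0.0339 in their deviations, and arrays of the 2 arms within a time at 0.0729 to 0.189 (0.13 to 0.189 at 72 h), against -0.156 to 0.0322 for different numbers. Every array correlated best with its own number, a hint from the data and not from the design. With the replicate block 4478 probe sets were higher and 5935 lower, 2265 and 2778 genes, and 784 and 630 probe sets for the difference. The difference for Rora had an adjusted p of 0.0533 with the replicate block. A block within each harvest time, chosen after seeing the data, gave 1040 and 804 probe sets for the difference.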
